A study of Ipomoea batatas with 18 samples.

Results

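The transcripts described here are 109 unigenes of sweetpotato (Ipomoea batatas) root that stood far higher in the high-starch cultivar Chuanshu 218 (HS) than in the low-starch cultivar 15-94 (LS). They were chosen from a table of 46840 unigenes. For each, the lowest of the 9 HS libraries was at least 4 times the highest of the 9 LS libraries, the mean over the HS libraries was at least 10 FPKM, and at least 1 LS library was above 0. FPKM are fragment numbers corrected for the length of the transcript and for the fragments mapped in the library. These conditions used the values of both cultivars, so the separation is how the members were picked and no test of it is given. Of the 12019 unigenes averaging 10 FPKM or more in HS, 0.907% met the rule.

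Roots of HS and LS plants were sampled at 30, 65 and 100 days of age, with 3 libraries in each of the 6 groups. All plants were grown in greenhouse pots under natural light, with no treatment named. Each starch class is represented by a single cultivar, so starch content and every other difference between HS and LS cannot be told apart. The labels do not tie a library to a plant, and the p-values therefore measure the spread between libraries, which may be partly technical.

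Sweetpotato forms storage roots by thickening of some of its adventitious roots. Sucrose delivered by the phloem is converted to ADP-glucose, from which starch synthases and branching enzymes build starch granules in amyloplasts. Sweetpotato is polyploid, and cultivars can differ in which alleles of a gene they carry and transcribe. A unigene is a transcript put together from reads without a genome, so closely related alleles or gene copies may be merged into a single unigene or held as several. The table does not pair unigenes with gene names, and 0 of its 46840 IDs matched the gene table of assembly IBA_r1.0, so no member can be placed in a pathway or at a chromosome position, and the root identity of the samples could not be checked against marker genes. At most 2 IDs are therefore printed, and the other members are called by their rank in mean HS level, from 1 (highest) to 109.

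The libraries differed in depth. At low levels the FPKM values are multiples of a smallest step, the value of 1 read. Its log2, set to 0 in the library with the smallest step, ran from 0 to 1.21 in HS and from 0.71 to 2.0 in LS libraries, so 1 read was on the whole worth more FPKM in LS. The absolute depth is unknown. The smallest value above 0 of a member is worth at least 1 read, and if reads were counted whole and not scaled further between libraries, the lowest HS value of a member stood for at least 4 to at least 1874 reads, with a median of 50 over the members. At least 10 reads lay behind every HS value of 105 of the 109 members. These bounds cover counting only.

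The members were a small share of the HS transcript pool at every age. Together they took 0.69%, 0.61% and 0.69% of the FPKM in HS roots at 30 days, 0.79%, 0.51% and 0.61% at 65 days and 0.52%, 0.70% and 0.54% at 100 days. In LS roots they took 0.0097%, 0.0106% and 0.0067% at 30 days, 0.0066%, 0.0071% and 0.0050% at 65 days and 0.0084%, 0.0065% and 0.0034% at 100 days. No HS library approached any LS library, which the rule required. The mean HS level of a member ran from 10.1 to 779 FPKM, with a median of 23.0 FPKM, while the mean LS level ran from 0.0067 to 15.2 FPKM, with a median of 0.11 FPKM. Means of at least 100 FPKM in HS were reached by 10 members and of at least 20 FPKM by 62.

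**Figure D1:**
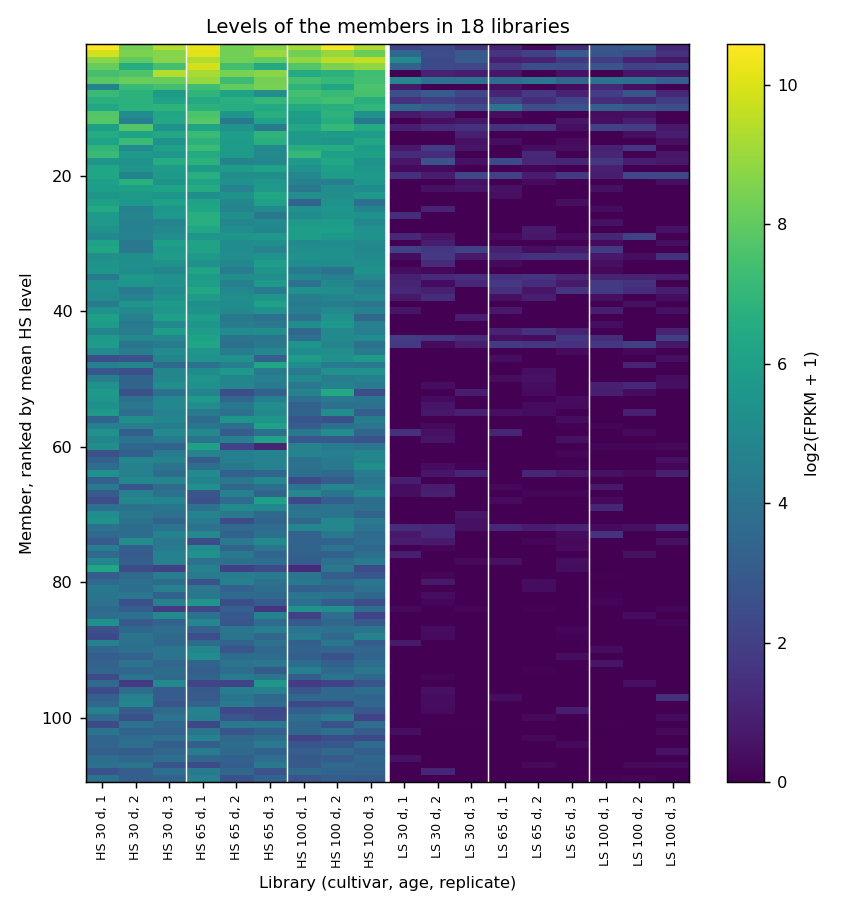
Level of each of the 109 members (rows, ranked by mean HS level) in the 18 libraries (columns: HS at 30, 65 and 100 days, then LS at the same ages), as log2(FPKM + 1). The HS side is filled in every row, while the LS side stays near 0 except for a few rows, 15 of which were above 0 in all 9 LS libraries.

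The width of the separation differed widely among the members. The ratio of the lowest HS to the highest LS library had a median of 16.2 and ran from 4.08 to 117. It was at least 8 in 79 members, at least 32 in 28 and at least 64 in 6. Just inside the limit of 4 lay members with ratios of 4.08, 4.46 and 4.50, and just outside it unigenes with ratios of 3.98, 3.97 and 3.89. In all, 21 unigenes had a ratio from 3 to under 4, and 11 members had one from 4 to under 5. At the limit of level the members nearest to it averaged 10.1, 10.4 and 10.4 FPKM in HS, and the unigenes just below it 9.91, 9.66 and 9.62 FPKM.

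**Figure D2:**
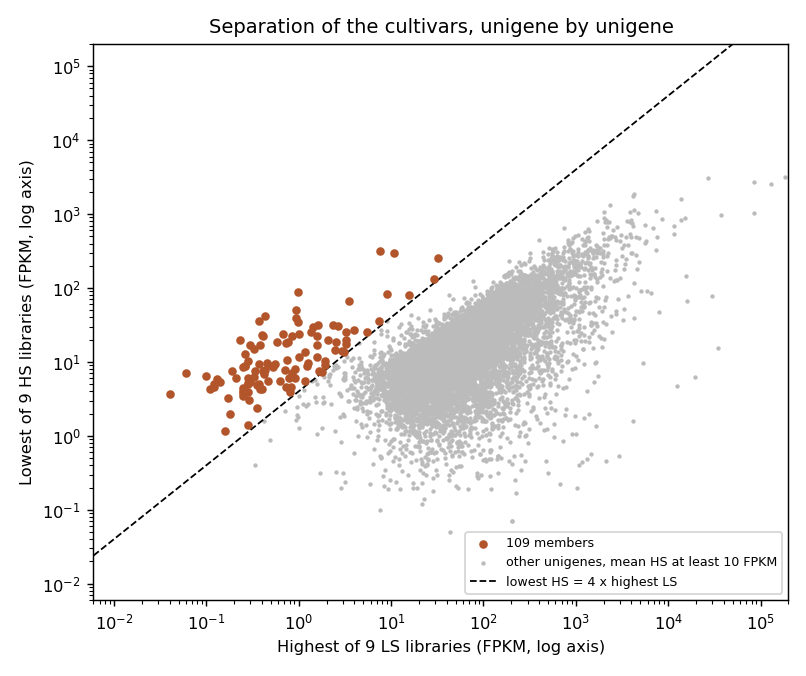
Lowest of the 9 HS libraries against the highest of the 9 LS libraries, both in FPKM on log axes, for unigenes averaging 10 FPKM or more in HS (members in brown, all others in grey; unigenes listed at 0 on either axis are not drawn). The dashed line is the limit of 4, above which the members lie with ratios from 4.08 to 117.

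Most members were barely registered in LS. The highest LS value was under 1 FPKM in 73 of the 109 members. A value above 0 occurred in 1 LS library for 34 members, in 2 for 19 and in 3 for 13, against 15 members with a value above 0 in all 9. Of the 10 members of highest HS level, 8 were among those 15. A value of 0 in a file without read counts does not show absence, and a further 37 unigenes met the other conditions but were listed at 0 in all 9 LS libraries, with a median of mean HS levels of 14.3 FPKM and a highest of 29.8 FPKM. The opposite rule, with LS in the place of HS, chose 133 unigenes with a median of mean LS levels of 27.7 FPKM and a median ratio of 15.1.

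The most abundant member was Iba_32651. It had 1535, 324 and 656 FPKM in HS roots at 30 days, 1172, 321 and 387 FPKM at 65 days and 569, 1400 and 644 FPKM at 100 days. In LS roots it had 3.49, 4.04 and 2.11 FPKM at 30 days, 1.10, 0.22 and 1.24 FPKM at 65 days and 6.05, 7.57 and 1.24 FPKM at 100 days. The libraries of 1 age in HS differed up to several-fold, yet the lowest of them was 42.3 times the highest LS library. On the log2(FPKM + 1) scale the HS level at 100 days differed from that at 65 days by 0.60 (SE 0.62), with a limma adjusted p of 0.87. Single libraries moved this difference, which was 1.18 without HS 65 d replicate 1, 0.25 and 0.38 without replicates 2 and 3 of that age, and 0.20 without HS 100 d replicate 2.

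The member with the widest separation was Iba_25884, of rank 93. It had 9.80, 10.3 and 12.5 FPKM in HS roots at 30 days, 7.96, 13.1 and 7.01 FPKM at 65 days and 22.9, 11.3 and 17.5 FPKM at 100 days. In LS roots it was listed at 0 in 8 libraries and at 0.06 FPKM in 65 d replicate 2. Its ratio of 117 thus rests on 1 small LS value, behind which the reads are not known. In HS its lowest library stood for at least 113 reads under the same assumptions on whole reads. Its HS difference from 65 to 100 days was 0.81 (log2, SE 0.38), with a limma adjusted p of 0.66.

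The next members by level did not share a single profile. The member of rank 2 had 939, 359 and 400 FPKM in HS at 30 days, 1098, 323 and 508 FPKM at 65 days and 323, 478 and 295 FPKM at 100 days, while its LS libraries lay between 1.87 and 10.7 FPKM. It was highest in the first libraries at 30 and 65 days. For the member of rank 4 the values were 277, 92.2 and 178 FPKM in HS at 30 days, 953, 164 and 82.1 FPKM at 65 days and 213, 365 and 452 FPKM at 100 days, and between 2.39 and 8.95 FPKM in LS. A single HS library at 65 days stood above all the others there. Most clearly present in LS was the member of rank 6, with 8.07 to 29.2 FPKM and a median of 14.8 FPKM, against 134 to 480 FPKM and a median of 237 FPKM in HS, a ratio of 4.58. Most even in HS was the member of rank 10, between 81.3 and 123 FPKM in all 9 libraries, with a coefficient of variation of 14.2%. It had 4.66 to 15.5 FPKM in LS. At the other end, the member of rank 78 had a coefficient of variation of 155%, with 74.1, 4.46 and 3.16 FPKM in HS at 30 days, so its mean rests largely on 1 library. Over the members the coefficient of variation in HS had a median of 50.1%, and over all unigenes averaging 10 FPKM or more in HS it was 43.7%.

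The members of rank 3 and rank 5 ordered the ages differently in HS. At rank 3 the values were 414, 257 and 408 FPKM in HS at 30 days, 647, 319 and 268 FPKM at 65 days and 473, 725 and 791 FPKM at 100 days. In LS it had 32.1, 4.27 and 7.30 FPKM at 30 days, 0.83, 1.05 and 2.33 FPKM at 65 days and 2.83, 1.01 and 0.60 FPKM at 100 days. In HS all 3 libraries at 100 days lay above all 3 at 30 days, and in LS all 3 lay below. The difference between the cultivars in the change from 30 to 100 days was 3.17 (log2, SE 0.79) by limma, with an unadjusted p of 0.00081 and an adjusted p of 0.92 over all unigenes tested. In LS the differences from 30 days were -2.29 (SE 0.56, adjusted p = 0.14) at 65 days and -2.29 (SE 0.56, adjusted p = 0.20) at 100 days by limma. Both differences rest on the LS libraries at 30 days. Without LS 30 d replicate 1 they were -1.51 and -1.52 (limma adjusted p = 0.29 and 0.52), whereas without LS 30 d replicate 2 the difference at 100 days passed, at -2.84 (limma adjusted p = 0.042).

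The member of rank 5 had 175, 201 and 663 FPKM in HS at 30 days, 584, 353 and 420 FPKM at 65 days and 88.6, 109 and 163 FPKM at 100 days, and at most 0.98 FPKM in any LS library. All HS libraries at 100 days lay below all at 65 and at 30 days. The HS difference between 100 and 65 days was -1.92 (log2, SE 0.46), with a limma adjusted p of 0.46. With array weights, which give each library its own precision, it was -1.93 and passed (limma adjusted p = 0.040).

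**Figure D3:**
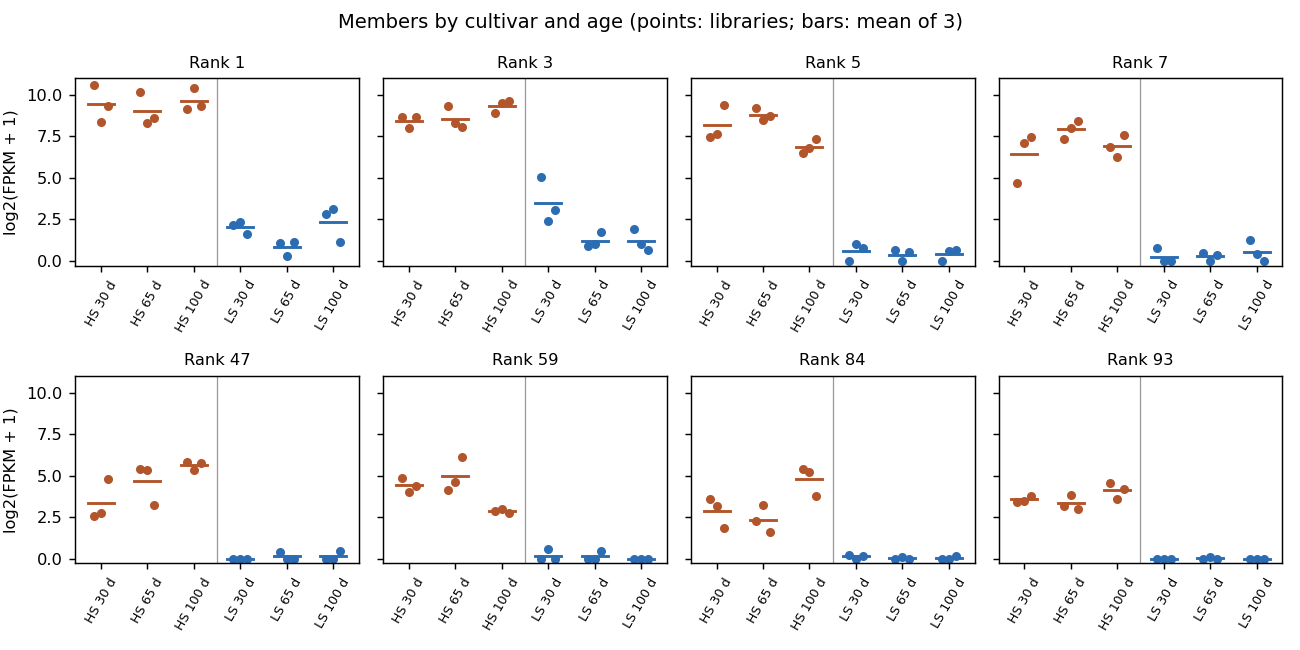
Level of 8 members, as log2(FPKM + 1), in the 6 groups (HS at 30, 65 and 100 days in brown on the left, LS in blue on the right; points are libraries and bars the mean of 3). The cultivars are apart in every panel, while within HS the order of the ages differs from member to member, for instance lower at 100 than at 65 days at rank 5 (difference -1.92) and higher at rank 84 (difference 2.44).

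The age comparisons ask whether these transcripts change as the root develops, a question the rule did not ask, although it used the lowest HS and the highest LS value over all ages. Each comparison was fitted with limma on log2(FPKM + 1) over the 32529 unigenes that reached 1 FPKM in 3 or more libraries. All 109 members passed this filter, as their HS levels ensured. Called were differences of at least 2-fold whose p, adjusted by Benjamini-Hochberg, was under 0.05. In HS no member was called from 30 to 65, from 65 to 100 or from 30 to 100 days, where 0%, 0% and 0% of all unigenes were called. The smallest limma adjusted p among the members was 0.32, from 30 to 100 days.

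Before adjustment, 4 members (3.67%) had a limma p under 0.05 between 65 and 30 days in HS, against 2.1% of the 12019 unigenes averaging 10 FPKM or more there and 2.56% of all 32529. Between 100 and 65 days 18 members did so (16.5%), 5 higher and 13 lower at 100 days, against 9.88% and 7.44%. Between 100 and 30 days 16 did so (14.7%), 4 higher and 12 lower at 100 days, against 10.7% and 7.87%. None of these survived adjustment. The fit takes the spread of a unigene from all 18 libraries, and most members hardly vary in LS. This can make their standard errors and p-values in HS smaller than those of the background, so nothing is read from the higher shares. Fitted on only the libraries compared, 2, 14 and 15 members had a limma p under 0.05, in the same order of comparisons. Of the 12019 unigenes 121, 1272 and 1534 did so. With array weights limma called 5 of the 109 members between 100 and 65 days in HS, and 378 of all 32529 unigenes. Between 100 and 30 days it called 16 members and 1610 of all. The counts of 0 thus depend on that choice. These fits also take the spread from all 18 libraries and no level-matched background is given, so no excess among the members is read from them. The median member difference was 0.03 (log2) from 30 to 65 days and -0.25 from 65 to 100 days, beside 0.01 and -0.03 over the unigenes averaging 10 FPKM or more in HS.

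Besides that of rank 5, large differences in HS occurred in members of middle and low rank, which were chosen after their values were seen. The standard errors and p-values given for single members also take in the LS libraries, where most hardly vary. They may therefore be too small for HS, with array weights too. The member of rank 84 had 40.8, 35.9 and 12.9 FPKM at 100 days, against 3.73, 8.40 and 2.0 FPKM at 65 days, a difference of 2.44 (log2, SE 0.53, limma adjusted p = 0.46). At rank 59 the member had 6.23, 6.92 and 5.57 FPKM at 100 days, against 16.3, 23.7 and 68.3 FPKM at 65 days, a difference of -2.10 (SE 0.47, limma adjusted p = 0.46). In both, the libraries of the 2 ages did not overlap, and with array weights both passed, at 2.74 for rank 84 (limma adjusted p = 0.022) and -2.49 for rank 59 (0.014). Rank 59 also passed without HS 30 d replicate 1 and HS 65 d replicate 1, at -2.52 (limma adjusted p = 0.044). Rank 47 held a member with 56.3, 39.5 and 52.7 FPKM at 100 days, against 4.90, 5.60 and 27.1 FPKM at 30 days, a difference of 2.28 (SE 0.60, limma adjusted p = 0.32). Its opposite at rank 24 had 9.43, 41.5 and 13.5 FPKM at 100 days, against 64.5, 49.5 and 65.3 FPKM at 30 days, a difference of -1.70 (SE 0.48, limma adjusted p = 0.36). The 100-day libraries lay above all the 30-day ones at rank 47 and below them at rank 24. With array weights the difference at rank 24 was -1.98 and passed (limma adjusted p = 0.013), while that at rank 47 was 1.33 and did not (0.094).

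From 30 to 65 days the largest difference in HS was that of the member of rank 49, with 34.4, 48.8 and 18.9 FPKM at 65 days, against 6.33, 5.05 and 27.9 FPKM at 30 days (1.59 on the log2 scale, SE 0.54, limma adjusted p = 1.0). The libraries overlapped, through 30 d replicate 3, and with array weights the difference was 0.47. At rank 7 the member had 159, 261 and 345 FPKM at 65 days, against 25.2, 139 and 175 FPKM at 30 days, a difference of 1.49 (SE 0.59, limma adjusted p = 1.0). Its low value at 30 days was that of replicate 1, and without that library the difference was 0.63.

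**Figure D4:**
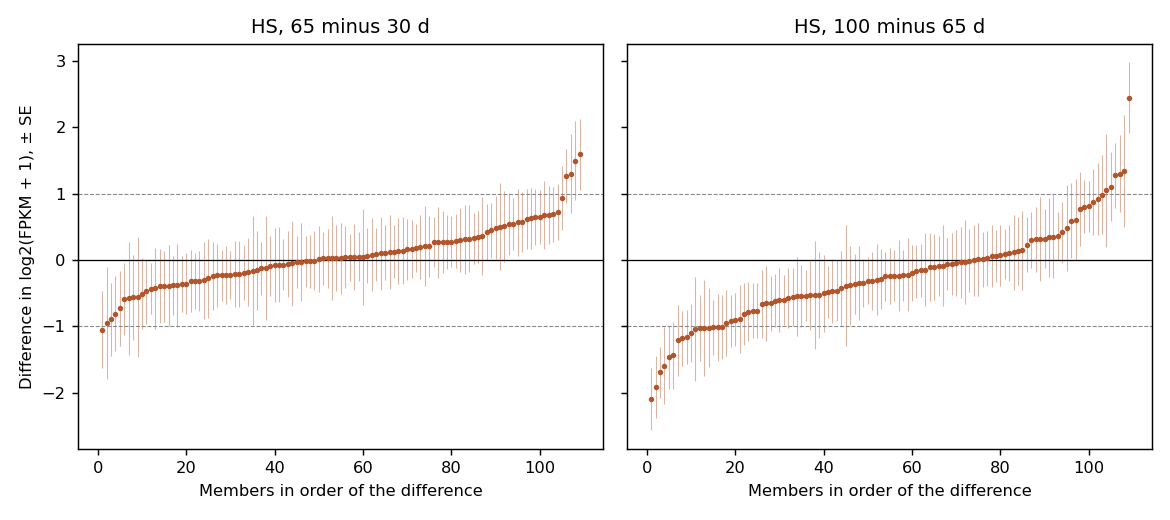
Difference in log2(FPKM + 1) of each of the 109 members in HS from 30 to 65 days (left) and from 65 to 100 days (right). Members are in order of the difference, with its standard error from limma, which takes the spread from all 18 libraries. Dashed lines mark 2-fold. On the right the differences run from -2.10 to 2.44 and more members lie below 0 than above (74 and 35), and on the left 49 lie below and 60 above; no member passed the adjusted p in this fit.

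Complete separation of the libraries of 2 ages was counted as well. In HS all libraries at 100 days lay below all at 65 days for 12 members (11%), beside 9.34% of the unigenes averaging 10 FPKM or more in HS, and above them for 4, beside 6.56%. From 30 to 100 days the counts were 13 below and 8 above, beside 9.73% and 8.47%, and from 30 to 65 days 0 below and 2 above, beside 1.31% and 1.84%. The members' shares were near the background.

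More members had their highest HS mean at 65 days (54, or 49.5%) than at 30 days (34) or 100 days (21), where the unigenes averaging 10 FPKM or more in HS had 34.7%, 31% and 34.3%. The count at 65 days leans on 1 library. Without HS 65 d replicate 1 it was 32 members, beside a background of 31.4%. That library held the highest of the 9 HS values for 39 members (35.8%), beside 19.6% of all unigenes of that level. It also had the highest FPKM sum in HS, 1217065, where the other HS libraries ran from 731156 to 1083018, and its log2 value of 1 read, 0.86, was the second highest in HS. The part of these library features in the members' profile was not tested. The lowest HS value fell most often in 100 d replicate 1, for 24 members (22%), beside 12.3%.

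**Figure D5:**
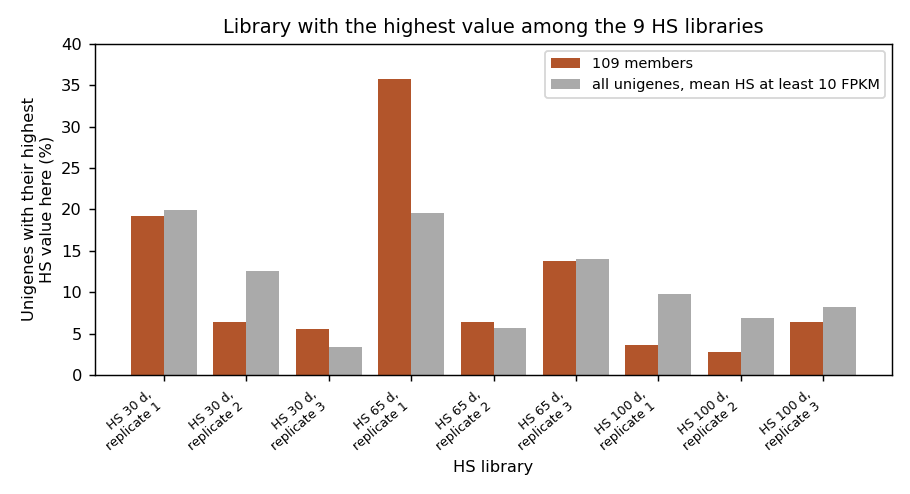
Share (%) of the 109 members (brown) and of all 12019 unigenes averaging 10 FPKM or more in HS (grey) whose highest value among the 9 HS libraries fell in each library. HS 65 d replicate 1 held the highest value for 35.8% of the members and 19.6% of all unigenes of that level.

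In LS most members were too low for a comparison of ages. No member was called from 30 to 65 or from 65 to 100 days, where 0% and 0% of all unigenes were called, or from 30 to 100 days, where 0.04% were. Before adjustment the limma p was under 0.05 for 4 (3.67%), 1 (0.917%) and 2 members (1.83%) in those comparisons. Among the unigenes averaging 10 FPKM or more in HS the shares were 14.1%, 1.26% and 9.76%. Iba_32651 had the largest LS difference from 65 to 100 days, 1.52 (log2, SE 0.62), at a limma adjusted p of 1.0. The interaction, which asks whether the change with age differed between HS and LS, called 0 members and 0% of all unigenes for each pair of ages. For members near 0 in LS it largely repeats the HS difference, since the LS side can hardly vary on the log2(FPKM + 1) scale, and nothing is read from these counts. Before adjustment its limma p was under 0.05 for 1 member (0.917%) from 30 to 65 days, 6 (5.5%) from 65 to 100 days and 8 (7.34%) from 30 to 100 days. The unigenes averaging 10 FPKM or more in HS had 3.38%, 4.2% and 5.5%. The cultivar difference itself, fixed by the rule, had a median over the members of 4.06 (log2) at 30 days, 4.17 at 65 days and 4.06 at 100 days on the log2(FPKM + 1) scale, which understates it for members near 0 in LS.

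Pairs of members were correlated across the HS libraries in both directions and to very different degrees. Over 5886 pairs, the correlation of log2(FPKM + 1) across the 9 HS libraries had a median of 0.14, with quartiles of -0.29 and 0.49, and 3.82% of pairs were above 0.8. Over pairs of all unigenes averaging 10 FPKM or more in HS the median was 0.01 and 4.09% of pairs were above 0.8. These are correlations across libraries that share depth and ages, given as a description. The closest pair joined rank 2 with rank 86 (r = 0.97), followed by ranks 11 and 12 (r = 0.97). Rank 86 had 38.3, 6.76 and 9.18 FPKM in HS at 30 days and 28.8, 5.87 and 12.1 FPKM at 65 days, and like rank 2 was highest in the first library of both ages. Those were the highest pair of HS libraries for 23 members (21.1%), near the 19% of all unigenes of that level. Nearest in profile to Iba_32651 was the member of rank 42 (r = 0.93), and to Iba_25884 that of rank 67 (r = 0.81). Among the members there were 6 pairs of neighbours with ID numbers at most 5 apart. No background was computed for this count, so nothing is read from it. Since alleles or copies of a gene may be held as several unigenes, the members need not all be separate genes.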

How the data were processed

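RNA-seq libraries (TruSeq stranded mRNA, per the labels' protocols) of 18 root samples were analysed in 6 groups of 3. The authors deposited 1 table of FPKM values for assembled unigenes; edgeR is named in the submitters' processing notes without a role or version. Aligner, counter, assembler and how libraries were scaled to each other are not stated in the sources used here. Read numbers are not given, so no counting intervals are printed. The members and lists were chosen with earlier results of these data known. IDs were printed by a rule: the member of highest mean HS level, and that with the largest ratio of lowest HS to highest LS value.

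FPKM are not counts, so limma 3.58.1 (R 4.3.3) was fitted to log2(FPKM + 1) with 6 group means, all 18 libraries, 12 residual degrees of freedom and a trended eBayes prior, after a filter of at least 1 FPKM in at least 3 libraries; adjusted p-values (Benjamini-Hochberg) run over all 32529 unigenes. The fit and the estimate of the value of 1 read (98% of library pairs within 0.05 log2 of it) were tested on simulated data. Python 3.11.15, NumPy 2.4.6, pandas 2.3.3 and Matplotlib 3.10.9 were used otherwise. Alternatives were other pseudocounts, filters, scalings, variance settings, separate fits of each comparison's libraries, a block for the replicate number, array weights, depth as a covariate, other limits of the rule and the omission of libraries; 2 sets of libraries left out together, and all alternatives for the age of the highest HS mean, were chosen after seeing the data.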

Additional observations from a re-analysis of the deposited data

Results flagged for a closer look

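For the members' share of the FPKM and for 18 members, those of rank 1 to 10 and 8 of lower rank whose library values are given above, the 9 libraries of each cultivar were searched for a library far from the rest, by comparing its gap to the next library, as a share of the whole range, with Dixon's 95% critical value. The 9 libraries mix ages, and 38 such series were searched. The chance rate of 1 in 20 behind the critical value does not hold here, since several members were picked by their values. A series with only 1 LS value above 0 is flagged whatever that value is. In HS, the member of rank 4 stood at 953 FPKM in 65 d replicate 1, where the next library had 452 FPKM, the member of rank 59 at 68.3 FPKM in 65 d replicate 3, where the next had 27.7 FPKM, and the member of rank 78 at 74.1 FPKM in 30 d replicate 1, where the next had 23.4 FPKM. In LS, 30 d replicate 1 stood apart for the member of rank 3 (32.1 FPKM, next 7.30 FPKM) and that of rank 6 (29.2 FPKM, next 16.9 FPKM); its log2 value of 1 read, 2.0, was the highest of the 18 libraries, and the part of depth in this was not tested. The members of rank 24 (0.37 FPKM in LS 65 d replicate 3), rank 49 (0.37 FPKM in LS 65 d replicate 2), rank 78 (0.28 FPKM in LS 65 d replicate 3), rank 86 (0.13 FPKM in LS 100 d replicate 3) and rank 93 (0.06 FPKM in LS 65 d replicate 2) were above 0 in 1 LS library only.

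The member of rank 3 had library values that lay in opposite directions in the cultivars: in HS it averaged 663 FPKM at 100 days, against 360 FPKM at 30 days, with every library above, while in LS every library at 100 days lay below every one at 30 days. The limma interaction for it had an adjusted p of 0.92, so the difference did not pass.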

How the results depend on the processing

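With the limit on the HS mean at 20 FPKM in place of 10 the rule chose 62 members, and between 79 and 157 under the other limits and scalings. Quantile normalization chose 132, of which 97 were among the 109, and leaving out 1 library gave 106 to 119. The median cultivar difference of the members was 4.74 (log2) with a pseudocount of 0.5 and 6.63 with 0.1, against 3.97 with 1, a shift that follows from the pseudocount where LS values are near 0, and leaving out 1 library gave 3.96 to 4.07. Under quantile normalization the median cultivar difference was 0.07 over all unigenes tested, in place of 0.17, and 3.91 over the members, in place of 3.97. All but 4 of the counts of members called under the alternatives stayed at 0. Array weights called 5 from 65 to 100 days in HS and 16 from 30 to 100 days (378 and 1610 of all unigenes). Without HS 30 d replicate 1 and HS 65 d replicate 1, chosen after seeing the data, 2 were called from 65 to 100 days in HS. The count over all unigenes is not printed for that setting. Over the 31 alternatives it ran from 0 to 378 for this comparison, so nothing is read from the 2. Leaving out 1 library called 0 to 1 members from 30 to 100 days in LS, where 0 to 91 of all unigenes were called. The 1 was that of rank 3 without LS 30 d replicate 2. The cause was not tested. For all unigenes the LS count from 30 to 100 days, 13, ran from 0 to 521. The 15 age results of single members kept their direction under all 31 alternatives each, and 459 of 465 values kept their side of the threshold; the other 6, at ranks 3, 5, 24, 59 (both times) and 84, passed it. The number of members with the highest HS mean at 65 days, 54, was 32 without HS 65 d replicate 1 and 33 without that library and HS 30 d replicate 1, and leaving out 1 library gave 32 to 69. Leaving out a library also moves the background share, as given above for HS 65 d replicate 1. The range is therefore not read as a trait of the members.

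Deviations of same-numbered libraries of different groups had a mean correlation of 0.07 over 45 pairs, from -0.46 to 0.62. For differently numbered libraries the mean was -0.035. Of the 18 libraries, 10 correlated best with their own number. The labels do not say whether the numbers mark a shared batch, and these values do not decide it. With the replicate block, 0 members were called in the 9 comparisons, and the LS count of all unigenes from 30 to 100 days was 26 in place of 13.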
